A study of Hordeum vulgare with 18 samples.

Results

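The change of gene expression over heading was followed in control barley spikes, in 6 of the 18 libraries of the series. They were chosen by their labels alone, as the azygous control at BBCH stage 49 (3 libraries) and at BBCH stage 59 (3 libraries). BBCH is a scale of cereal growth stages. At stage 49 the first awns are visible above the sheath of the uppermost leaf, and at stage 59 heading has ended and the whole spike is out. The plants were barley, Hordeum vulgare, of the cultivar Golden Promise, grown in field plots, and whole spikes were sampled. An azygous plant descends from a transformed plant but has not inherited the transgene. The other 12 libraries came from 2 lines in which HvCKX1, a gene for a cytokinin-degrading oxidase, was silenced, KD-CKX1 5.8 and KD-CKX1 17_10, with 3 libraries at each stage in each line. They are used below where a comparison needs libraries outside the control. The sources used here do not give the number of plants or spikes behind a library.

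Heading is the emergence of the spike from the leaf sheath by growth of the upper stem. Around this time the floret organs of barley mature, pollen is completed in the anthers, the awns reach the light, and the ovary approaches or passes fertilization. A whole spike therefore holds many tissues, and their shares change as it grows. In such bulk RNA, fewer cells of a type and less RNA per cell cannot be told apart.

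Expression was measured by stranded mRNA sequencing, and the deposited values are gene counts divided by a size factor for each library, called normalized counts. The recovered depth was 41867959 to 106034579 reads in the 6 control libraries. The table holds 26066 features, of which 24211 have MLOC and 1855 EPlHVUG identifiers. None (0) matched the barley reference table, and no names come with the identifiers, so functions, tissue markers and the silenced gene could not be examined, and few identifiers are named. In all, 19965 features reached 10 normalized counts in 3 or more of the 6 libraries and were tested, 6101 did not, and 2407 of those were at 0 in all 6.

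Almost as many features differed between the stages as did not, with rises and falls in nearly equal number under the deposited scaling. By limma with Benjamini-Hochberg adjustment over all features tested, 9481 of 19965 features had an adjusted p below 0.05, which is 47.5%. Of these, 4730 rose (23.7%) and 4751 fell (23.8%) from stage 49 to stage 59. The median log2 fold change was 1.27 among the features that rose and -1.30 among those that fell. Over all features tested it was 0.02. This balance depended on the scaling. With values scaled to the total reads of each library, a choice made after the data were seen, 5843 features rose and 3934 fell. A change of at least 4-fold was found in 3227 called features (16.2% of those tested), 1667 higher and 1560 lower. Folds are on the log2(normalized count + 1) scale, which understates the change of low features.

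**Figure D1:**
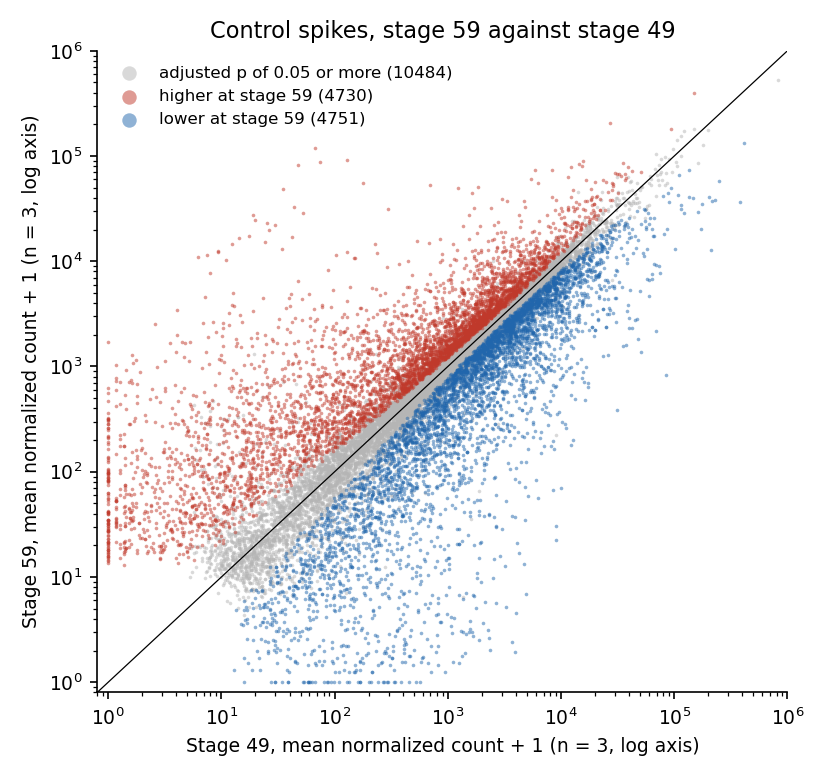
Mean normalized count + 1 of each of 19965 features at stage 49 (x axis) and stage 59 (y axis) in control spikes, n = 3 libraries each, on log axes, with the line of equal values. The 4730 features called higher (red) and 4751 called lower (blue) lie on both sides of the line over the whole range of levels, and some features lie far from it at low, middle and high levels.

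The separation of the libraries, read from the same values as the calls, was also broad. In 12160 features (60.9% of those tested) the 3 libraries of one stage all lay above the 3 of the other, 6198 with stage 59 above (31.0%) and 5962 with stage 49 above (29.9%). Without any difference, a share of 0.1 would be expected to separate in 3 against 3 libraries. Of the separated features, 960 had at least 10 normalized counts in every library of 1 stage and fewer in every library of the other. These passed the filter through 1 stage alone and had to separate. Among the called features, 4711 of the 4730 that rose and 4735 of the 4751 that fell were separated in this way. The remaining 19 and 16 were called although a library of one stage lay within the range of the other. The correlation of log2 values across features, which are not independent replicates, was 0.95 to 0.99 between libraries of a stage and 0.75 to 0.83 between libraries of different stages.

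Fold sizes were spread over a wide range. Of the called features, 3761 differed by less than 2-fold, 2493 by 2- to 4-fold, 2068 by 4- to 16-fold, 734 by 16- to 64-fold and 425 by 64-fold or more. Rises were slightly the more numerous among changes of less than 2-fold, with 1943 against 1818 falls. Falls were the more numerous among changes of 2- to 4-fold, with 1373 against 1120 rises, and of 4- to 16-fold, with 1085 against 983. Rises were again the more numerous at 16- to 64-fold, with 441 against 293, and at 64-fold or more, with 243 against 182. Features with a mean under 100 normalized counts over the 6 libraries gave 221 and 105 of the former, and 46 and 22 of the latter. Features that passed the filter through 1 stage alone are part of that level, as given below, and were not counted by fold. These counts describe the called features and were not tested against each other.

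A part of the called features stood near or at 0 at one stage. Of the features that rose, 681 (14.4%) had a mean below 10 normalized counts at stage 49, and 100 of them had 0 reads in all 3 libraries. The features that fell included 485 (10.2%) with a stage 59 mean below 10, and 39 had 0 reads in all 3 libraries. Most called features were thus measured at both stages, 4049 of those that rose and 4266 of those that fell. Among these, 1019 rose and 1096 fell by at least 4-fold. The filter bears on the features with a low mean. Of the 681 that rose, 537 passed it through stage 59 alone, out of 551 such features tested. Of the 485 that fell, 391 passed it through stage 49 alone, out of 409. Those features had to differ, so their number does not measure how often features are near 0 at a stage. The share of all tested features with such a low mean was not counted.

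The features were then divided by their mean normalized count over the 6 libraries, a measure blind to the direction of change. The classes are of read counts, which grow with transcript length, and lengths of these features were not used here. The share called grew with the level, and large folds were a smaller part of the calls above 100 normalized counts. Of 3511 features with a mean under 100, 40.6% were called, against 46.9% of 6919 at 100 to 1000, 49.9% of 8526 at 1000 to 10000, and 55.5% of 1009 at 10000 or more. The median standard error of the log2 fold change was 0.49 in the lowest class, 0.24 in the second, 0.12 in the third and 0.15 in the highest, so a given fold was harder to call at low levels. Of the called features, 75.0% in the lowest class changed at least 4-fold, against 41.3%, 16.2% and 23.0% in the classes above it.

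The balance of rises and falls also moved along the level classes. Under 100, 810 features rose and 614 fell. At 100 to 1000 the numbers were 1670 and 1575, at 1000 to 10000 they were 2027 and 2225, and at 10000 or more 223 and 337. Rises were 56.9% of the calls in the lowest class and 39.8% in the highest. The share of tested features that rose was between 22.1% and 24.1% in all 4 classes, while the share that fell went from 17.5% in the lowest to 33.4% in the highest. In the lowest class 449 features had at least 10 normalized counts in every stage 59 library and fewer than 10 in every stage 49 library, and 271 had the opposite pattern. These passed the filter through 1 stage alone and had to differ, and 435 of the rises and 253 of the falls called in the lowest class were among them. Without them 375 rises and 361 falls remained in that class, so rises were 51.0% of its calls in place of 56.9%, and the excess of rises there rests on features that the filter admitted for being high at stage 59. The same step left rises at 52.1%, 47.7% and 39.8% of the calls in the classes above, so the excess of falls at 10000 or more was not touched by it. This step was chosen after the values were seen. When the values were scaled to the total reads of each library, the median log2 fold change of all features was 0.15, and rises were 59.8% of all calls, against 49.9% with the deposited scaling. Rises and falls were not counted by level class under that scaling, so the excess of falls at 10000 or more holds for the deposited scaling.

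**Figure D2:**
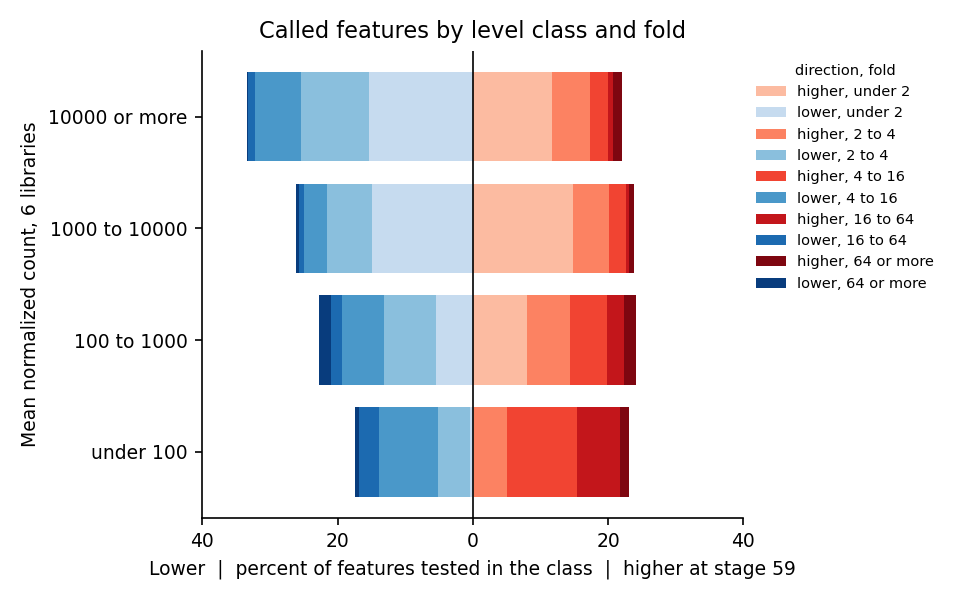
Called features as a percent of the features tested in each class of mean normalized count (y axis), lower at stage 59 to the left and higher to the right, shaded by fold. The blue bar lengthens from 17.5% in the lowest class to 33.4% in the highest, the red bars stay between 22.1% and 24.1%, and the darker shades of large folds thin out above 1000 normalized counts.

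The largest folds were not confined to weakly read features. At a mean of 10000 or more, 14 features rose and 2 fell by at least 64-fold. At 1000 to 10000, 55 rose and 34 fell that far. The highest log2 fold change in the class of 10000 or more was 11.24 and the lowest was -6.80. In the class of 1000 to 10000 the extremes were 11.51 and -10.69.

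For features that were not called, the interval of the fold shows how much change the data leave room for. Of 10484 such features, 6925 (66.1%) had a 95% limma interval of the log2 fold change that lay within -1 to 1, that is, less than a 2-fold change in either direction. The other 3559 had intervals that reached past these bounds, so for them a 2-fold change is not excluded. The share with a narrow interval was 12.4% at a mean under 100, 66.2% at 100 to 1000, 90.9% at 1000 to 10000 and 78.6% at 10000 or more.

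From stage 49 to stage 59 a large share of the normalized counts shifted between features. The share of normalized counts in features that rose went from 13.2 ± 0.90% at stage 49 to 32.6 ± 1.71% at stage 59 (SD, n = 3). The share in features that fell went from 40.5 ± 2.99% to 17.9 ± 0.79%. Features that were not called took 46.2 ± 2.13% and 49.5 ± 0.92%. These shares are descriptions, since the same values sorted the features. A small part of the called features carried 50% of the movement. The 200 largest gains among the 4730 rising features made up 50% of the total gain in mean normalized count. The 195 largest losses among the 4751 falling features made up 50% of the loss. The 223 rising features with a mean of 10000 or more carried 47.4% of the gain, and the 337 falling ones 55.8% of the loss. The 810 rising and 614 falling features under 100 carried 0.52% and 0.30%.

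The most abundant features held less of the library at stage 59. The 100 most abundant features of each library took 18.6%, 16.8% and 19.4% of normalized counts in replicates 1, 2 and 3 of stage 49, and 15.9%, 16.3% and 14.3% in those of stage 59. All 3 stage 59 libraries lay below all 3 of stage 49 (exact two-sided permutation test, p = 0.1, the smallest that 3 against 3 libraries allow). The 10 most abundant took 5.60 ± 0.43% at stage 49 and 4.30 ± 0.38% at stage 59, and the 1000 most abundant took 47.4 ± 1.07% and 44.8 ± 1.23% (SD, n = 3), with exact p = 0.1 for each. Between 1112 and 1220 features made up 50% of the counts at stage 49, against 1248 to 1396 at stage 59. The total of the normalized counts was 57912673 to 58426737 at stage 49 and 51476694 to 55526995 at stage 59, again without overlap (exact permutation p = 0.1).

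The membership of the top ranks turned over. Of the 100 features with the highest mean at stage 49, 45 were also among the 100 highest at stage 59. Of the 55 that left, 47 were called lower, and of the 55 that joined, 42 were called higher. Over all features tested, 23.8% were called lower and 23.7% higher. The ranks and the calls come from the same libraries, so these counts are descriptions. Of the 10 highest, 3 were shared, and of the 1000 highest, 666.

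Among features with separated stages, MLOC_69140 and MLOC_8169 rose with the widest gap in normalized counts between the stages. MLOC_69140 had 159995, 135768 and 149851 normalized counts in replicates 1 to 3 of stage 49, and 450811, 406244 and 324316 in those of stage 59. Every stage 59 library was above every stage 49 library (means 148538 ± 12167 and 393790.0 ± 64161, SD, n = 3; limma log2 fold change 1.40 with SE 0.28, adjusted p = 0.0075). It went from rank 16 by mean normalized count to rank 2.

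MLOC_8169 had 30524, 25316 and 25667 normalized counts at stage 49 and 224546, 189338 and 198293 at stage 59. Its libraries agreed closely within each stage and were far apart between them (means 27169 ± 2911 and 204059 ± 18299, SD, n = 3; limma log2 fold change 2.91 with SE 0.17, adjusted p = 7.4e-05). This feature rose from rank 234 to rank 3, and from 0.047% to 0.38% of the normalized counts.

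MLOC_64900 and MLOC_69930 fell with the widest gaps. MLOC_64900 had 435362, 323080 and 381459 normalized counts at stage 49 and 48996, 34302 and 27058 at stage 59. Its lowest stage 49 library stood far above its highest stage 59 library (means 379967 ± 56156 and 36785 ± 11178, SD, n = 3; limma log2 fold change -3.40 with SE 0.28, adjusted p = 0.00023). From rank 3, with 0.65% of the normalized counts, it went to rank 134, with 0.069%.

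MLOC_69930 had 437198, 437813 and 360998 normalized counts at stage 49 and 159907, 109249 and 125965 at stage 59. The stages did not overlap, yet it was still rank 10 after the fall from rank 2 (means 412003 ± 44172 and 131707 ± 25813, SD, n = 3; limma log2 fold change -1.66 with SE 0.29, adjusted p = 0.0041).

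MLOC_75846 and MLOC_18233 were the most abundant features that were not called and whose interval lay within a 2-fold change. MLOC_75846 had 209308, 152826 and 228167 normalized counts at stage 49 and 188245, 171051 and 172410.3 at stage 59, so the stages overlapped (log2 fold change -0.13, 95% interval -0.76 to 0.50, limma adjusted p = 0.71). MLOC_18233 had 127548, 96676 and 121341 at stage 49 and 143733, 163388 and 152792 at stage 59. All 3 of its stage 59 libraries were above those of stage 49, but the difference did not pass the threshold (log2 fold change 0.42, 95% interval -0.09 to 0.93, limma adjusted p = 0.15). By DESeq2 on recovered reads it did, with an adjusted p of 0.013 and a log2 fold change of 0.40.

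**Figure D3:**
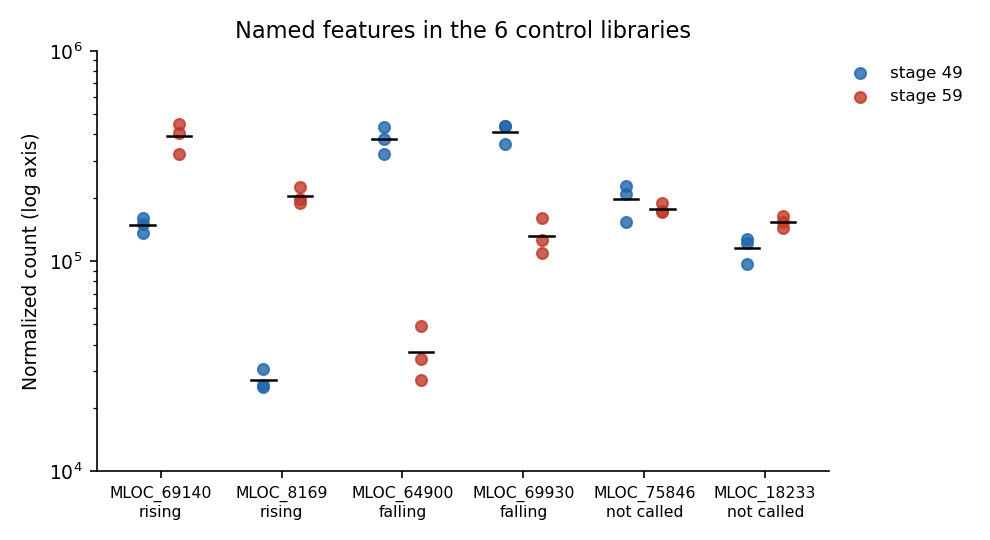
Normalized counts of the 6 named features in the 3 control libraries of stage 49 (blue) and of stage 59 (red), on a log axis, with a bar at each mean. The stages are apart in MLOC_69140, MLOC_8169, MLOC_64900 and MLOC_69930, overlap in MLOC_75846, and lie close without overlap in MLOC_18233.

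Of the features with EPlHVUG identifiers, 32 of 137 were called (10 higher, 22 lower), against 9449 of 19828 with MLOC identifiers, and this difference was not tested. They took 0.35 to 0.80% of the normalized counts in the 6 libraries, with the highest share in replicate 2 of stage 49.

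Replicates were less alike at stage 49 than at stage 59. The median SD of log2 values over 3 libraries was 0.25 at stage 49 and 0.17 at stage 59, and it was larger at stage 49 in 12473 of 19965 features (62.5%). This share grew from 56.4% in the lowest level class to 70.8% in the highest. The widest differences between stage 49 libraries were those with replicate 2, and the SD was not recomputed without it. Replicate 2 of stage 49 differed by at least 4-fold from replicate 1 in 750 features and from replicate 3 in 1201, while replicates 1 and 3 differed that far in 339. At stage 59 the 3 pairs differed that far in 151, 398 and 515 features. The median absolute log2 difference between replicates 1 and 3 of stage 49 was 0.18, against 0.18 to 0.22 for the pairs of stage 59 and 0.30 and 0.38 for the pairs with replicate 2. Without replicate 2 of stage 49 the count of called features was 9595, and 8741 of the 9481 remained.

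The position of each control library on a stage axis was read from the 12 libraries of the silenced lines, none of which is a control library. The features were those that passed the filter on the control libraries, and all libraries were scaled together in the deposited table. For each feature the difference between the lines' means at stages 59 and 49 was taken, and each control library was projected on it, so that 0 is the lines' mean at stage 49 and 1 their mean at stage 59. The control libraries of stage 49 lay at 0.11, -0.07 and 0.20 in replicates 1, 2 and 3. Those of stage 59 lay at 0.98, 1.02 and 1.05. The means were 0.08 ± 0.14 and 1.02 ± 0.04 (SD, n = 3; exact two-sided permutation test, p = 0.1, the smallest possible). The 3 stage 49 libraries were thus spread over a wider stretch of this axis than the 3 of stage 59. Replicate 2 lay at the low end and replicate 3 nearest to the stage 59 mean of the lines. Whether the position follows the age of the spikes was not tested.

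Replicate 2 was the lowest and replicate 3 the highest of the stage 49 libraries in features that rose and in features that fell. Over 2810 features called higher at stage 59 in both lines, the stage 49 replicates 1 to 3 lay at 0.06, -0.04 and 0.23, and the stage 59 replicates at 1.08, 1.12 and 1.04. Over 3157 features called lower in both lines, they lay at 0.16, -0.09 and 0.24, and at 0.87, 0.91 and 1.02. The distance between the stage means in the control was 0.99 for the rising and 0.83 for the falling features, as a part of the distance in the lines. Both lists were chosen from the same line libraries that set the axis, and this choice can lengthen the distance in the lines. In the 4 level classes, from low to high, the distance was 0.87, 0.95, 0.97 and 1.07. With the axis of line 17_10 alone it was 0.95 and with that of line 5.8 alone 0.84. On the axis of line 5.8 alone, replicates 1 to 3 of line 17_10 lay at 0.14, 0.12 and 0.10 at stage 49. At stage 59 they lay at 1.07, 0.94 and 1.02. On the axis of line 17_10 alone, those of line 5.8 lay at 0.01, 0.01 and -0.01 at stage 49, and at 0.95, 0.94 and 0.85 at stage 59. The distances and positions were not tested against each other.

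**Figure D4:**
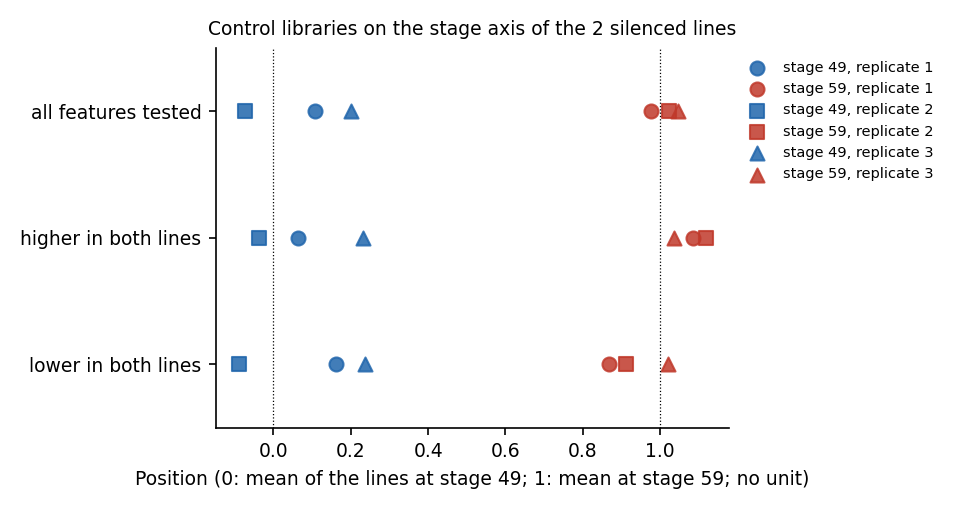
Position of the 6 control libraries on the stage axis of the silenced lines (x axis, no unit; 0 is the lines' mean at stage 49 and 1 at stage 59), over all features tested and over the features called higher or lower in both lines. Stage 49 libraries (blue) run from -0.09 to 0.24 over the 3 rows and stage 59 libraries (red) from 0.87 to 1.12, and in each row replicate 2 of stage 49 is the leftmost.

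The features that changed in the lines were also read in the control spikes. Of the 2810 features called higher in both lines, 2506 (89.2%) were called higher in the control, where 23.7% of all features were, and 2808 had the same sign. Of the 3157 called lower in both lines, 2673 (84.7%) were called lower in the control, where 23.8% of all features were, and 3129 had the same sign. None (0) of either list was called in the opposite direction in the control.

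In the other direction, most stage changes of the control had the same sign in the lines. Of the 4730 features that rose in the control, 94.8% had the same sign in line 5.8 and 98.5% in line 17_10. They were called higher in 55.2% of cases in line 5.8, where 15.5% of all features were, and in 80.8% in line 17_10, where 25.6% were. Of the 4751 that fell, 57.3% were called lower in line 5.8 (16.8% of all features) and 88.6% in line 17_10 (27.7% of all features). Seen from the lines, 84.3% of the rises and 81.1% of the falls called in line 5.8 were also called in the control, and 74.7% and 76.2% of those called in line 17_10.

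The size of the change in the lines followed the size in the control. Among rises of less than 2-fold in the control, the median log2 fold change was 0.57 in control spikes, 0.49 for line 5.8 and 0.53 for line 17_10. Among rises of 64-fold or more it was 7.16, 5.45 and 6.13, and among falls of that size -7.15, -5.57 and -7.70. The control medians set the classes and are descriptions.

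**Figure D5:**
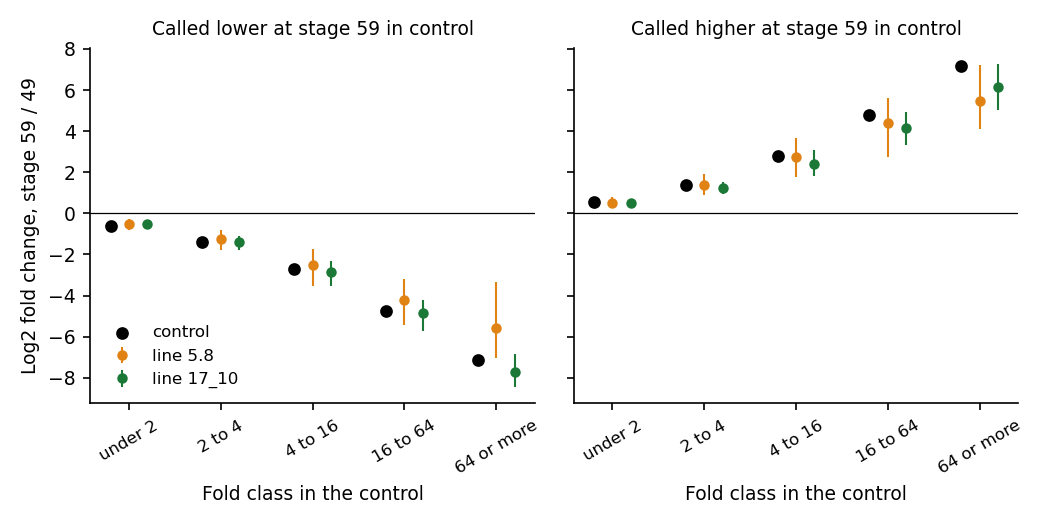
Median log2 fold change from stage 49 to stage 59 (y axis) of the features called in the control, by direction (panels) and fold class in the control (x axis), for the control (black), line 5.8 (orange) and line 17_10 (green). Bars span the first to the third quartile over features in a line. The medians of both lines move with the class, and in the class of 64-fold falls line 5.8 stands at -5.57 and line 17_10 at -7.70.

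A smaller set was called in the control alone. Of the 9481 called features, 5179 (54.6%) were called the same way in both lines, 3007 in 1 line, and 1295 (13.7%) in neither, while 5 were called in the opposite direction in a line. Of the 1295, 967 had the same sign in both lines, and 252 had changed at least 4-fold in the control, 231 of them higher. Being called in the control and not in a line does not show that the stage change differed. By the limma test of the difference itself, over all 18 libraries, 0 features passed for line 5.8 (unadjusted p below 0.05 in 2219 of 19965) and 0 for line 17_10 (482). If no feature differed, a share of 0.05 of the features would be expected below 0.05. The count for line 5.8 was above that share and the count for line 17_10 below it. That 0 features passed does not show that the stage changes were equal. By DESeq2 on recovered reads 42 and 13 passed. Without replicate 3 of control stage 59 the limma counts were 23 and 21, and without replicate 2 of control stage 49 they were 3 and 0.

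The 4 named features that changed in the control had fold changes of the same sign in both lines. MLOC_69140 had a log2 fold change of 1.80 in line 5.8 and 1.28 in line 17_10 (limma adjusted p = 0.011 and 0.0038), and MLOC_8169 had 3.33 and 2.87 (adjusted p = 0.0064 and 4.4e-05). MLOC_64900 had -2.03 in line 5.8 and -3.25 in line 17_10 (limma adjusted p = 0.045 and 0.00069). Its stage 49 values in line 5.8 were 443221, 107484 and 435836 normalized counts, so replicate 2 of that group stood far below the others. MLOC_69930 had -0.95 in line 5.8, which did not pass the threshold (limma adjusted p = 0.16), and -1.60 in line 17_10 (adjusted p = 0.0091). For none of the 4 did the stage change differ between a line and the control by the limma interaction test, where the lowest adjusted p was 0.45, for MLOC_64900 in line 5.8.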

How the data were processed

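Whole-spike RNA of 18 libraries was sequenced, of which the 6 control libraries carry this comparison. The deposited signal in each library's column is a gene count that the authors divided by a DESeq size factor, per the labels. STAR 2.4.2a, Subread 1.5.2 and DESeq2 are named in the submitters' processing notes, whose order and roles are unknown. The genome build, annotation, strand setting and treatment of multiply aligned reads remain not given in the sources used here, so reads of near-identical or overlapping genes could be split or lost. Size-factor scaling leaves no trace of a change in total RNA.

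Dividing each library by its smallest non-zero value gave whole reads for 100% of values (tolerance 0.001 reads). Features with at least 10 normalized counts in 3 or more of the 6 libraries were tested as log2(normalized count + 1) with limma 3.58.1 in R 4.3.3 (empirical Bayes with a mean-variance trend, two-sided, Benjamini-Hochberg adjustment, threshold 0.05). Each line's stages were fitted in the same way on its own 6 libraries, over the features tested in the control. The interaction used all 18. Alternatives used edgeR 4.0.16 and DESeq2 1.42.0 on recovered reads, other pseudocounts, filters and scalings, a minimum fold, thinned reads, a replicate block and each library left out. The fit was tested on simulated data. Permutation tests used scipy 1.17.1.

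Named features were, among calls without overlap, the 2 rises and 2 falls with the widest gap between stages, and the 2 most abundant features not called whose 95% interval lay within -1 to 1. The comparison, classes and rules were chosen with earlier results of these data known. The series description calls the libraries biological replicates. Chi-square per feature between replicates was at least 54.9, so none was counted as a copy. PCR copies were not examined here, and whether they were removed before counting is unknown.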

Additional observations from a re-analysis of the deposited data

How the results depend on the processing

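Counts, shares and distances were recomputed in 230 alternative values, of which 216 stayed within the set limits, and the log2 fold changes of named features in 114, of which 111 kept direction and call. The limits were wide. They took in a fall of the called count from 9481 to 6962, without replicate 2 of stage 59. Within them were also 5843 rises and 3934 falls under scaling to total reads, against 4730 and 4751. The count of called features, 9481, was 8278 to 10693 under other pseudocounts, filters, scalings, tools, thinned reads, the fit of all 18 libraries and the block. It was 6962 to 9595 with 1 library left out. None (0) of the features called in both settings changed direction. Under a test against a minimum log2 fold change of 1, which asks for more than 2-fold, 2927 were called (1474 higher, 1453 lower). By level class from low to high these were 721, 1174, 878 and 154, and 2238 were also called in line 5.8 and 2741 in line 17_10. MLOC_69140 and MLOC_69930 did not pass that stricter test. The interaction count of 0 was 42 for line 5.8 and 13 for line 17_10 by DESeq2, and 0 to 23 and 0 to 21 with a control library left out. The cause was not tested. Scaling to total reads was chosen after seeing the data. Replicate numbers did not pair the libraries: deviations from the group means correlated at 0.11, 0.04 and -0.04 between same-numbered libraries, and not every library correlated best with its own number. With the replicate block 8278 features were called, of which 8083 were among the 9481. The stage distance on the lines' axis, 0.94, was 0.862 to 0.999 with a control library left out. Depth limits features under 100 normalized counts most.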
